A study of Mus musculus with 2 samples.

Results

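The genes described here are 10 members of 2 signalling pathways that are active in early mouse embryos and in pluripotent cells, and they were taken by name from a table of 17408 genes. They were Nodal, Gdf3, Tdgf1, Lefty1 and Lefty2 of the Nodal pathway and Fgf4, Etv4, Etv5, Spry4 and Dusp6 of the FGF-ERK pathway, and all 10 were in the table. The cells were mouse embryonic fibroblasts (MEFs) that carry STEMCCA, a transgenic cassette that doxycycline switches on and that encodes Klf4, Myc, Pou5f1 and Sox2. They were collected without sorting after 16 days of reprogramming towards iPSCs (induced pluripotent stem cells) in medium with serum, LIF and ascorbic acid, and RNA was measured by droplet single-cell sequencing of transcript 3′ ends, in which each captured molecule counts as 1 unique molecular identifier (UMI). There were 2 libraries of the same group, here replicate 1 (3109 cells) and replicate 2 (3914 cells), with no starting MEFs, no finished iPSCs and no untreated cells beside them. The study used independent transgenic STEMCCA mouse systems, and as the labels do not tie a library to a system, a difference between the libraries cannot be told apart from a difference between systems. The factors' transgenic and endogenous RNA were not separated.

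Nodal is a secreted ligand of the TGF-beta family. It signals through activin receptors and SMAD2 and SMAD3, needs a co-receptor such as TDGF1 (also called Cripto), and switches on its own inhibitors LEFTY1 and LEFTY2, so that LEFTY transcripts are often read as a record of the signal. FGF4 is a secreted ligand that pluripotent cells make themselves. It acts through FGF receptors and the RAS-ERK kinase cascade, which induces the ETS transcription factors ETV4 and ETV5 as well as proteins that damp the cascade, among them SPRY4 and the ERK phosphatase DUSP6.

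The libraries held 54145377 and 64654306 UMIs, with 4753 to 60990 UMIs in a cell. Cells were grouped into 16 clusters by genes other than those described here, and 12 clusters with at least 30 cells in both libraries are called cell states. Cluster 5 was pluripotent-like, as 11 of 11 pluripotency markers were at least 2-fold above the other cells (leading genes Dppa5a, Utf1 and Fabp3). So were 5 of 6 mitotic and 4 of 11 epithelial markers, and their part in the results was not tested. It held 146 cells (4.70%) in replicate 1 and 391 cells (9.99%) in replicate 2. Its cells were deeper than the rest, with medians of 28768 and 26097 UMIs against 15625 and 14292 over all cells. The other states were a fibroblast-like cluster 8 (9 of 11 markers), a myofibroblast-like cluster 11 (7 of 7), the mitotic-like clusters 2 (Tk1, Mki67) and 10 (Cdc20, Cenpa), cluster 6, which was led by replication genes (Hist1h1b, Neil3), and clusters 0 (Acsbg1, Cib2), 1 (Pcp4, Nxpe2), 3 (Rgcc, Rarres2), 4 (Perp, Krt19), 7 (Mmp11, Isg15) and 9 (Dkk2, Sbspon), which stayed unnamed. The libraries shared 12 cell barcodes.

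All levels below are means over the cells of a state, in UMIs of the gene per 10000 UMIs of the cell. The pluripotent-like state was compared with the unweighted mean of the other 11 states by limma on log2(mean + 0.1), with terms for state and library, over the 12486 genes with at least 100 UMIs. A fold difference on this scale understates that of genes at low levels. Nodal, with 71 UMIs in all, was below that minimum and was not tested. Of the 9 members tested, 7 were higher in the pluripotent-like state (31.7% of all genes tested were), among them Etv4, whose call several alternatives did not keep, and 2 were lower (40.4% were). Over all genes 3964 were called higher and 5044 lower. With each profile centred on its median gene the calls were 4954 higher and 3820 lower, as the median difference moved from -0.08 to 0.05, and the 9 members kept their direction and their call. Both pluripotent-like libraries were above all 22 other profiles for 5 of the members tested (17.3% of genes were) and below all of them for 2 (21.1% of genes were).

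**Figure D1:**
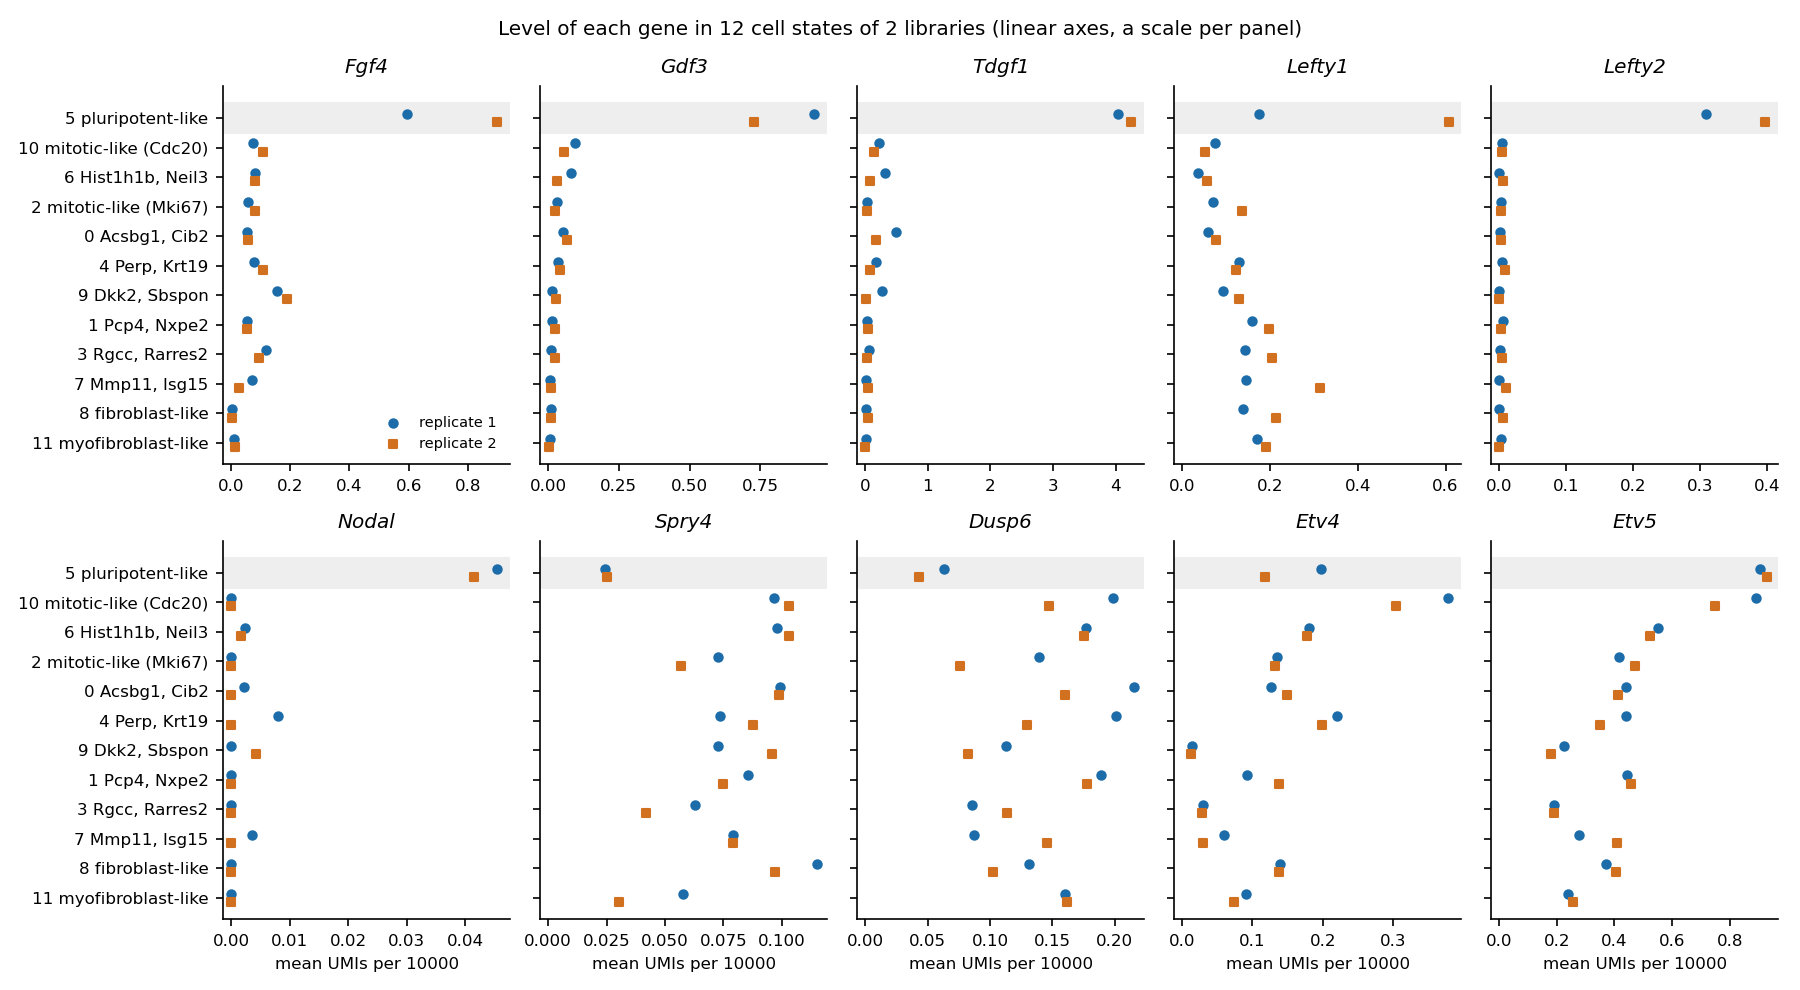
Mean UMIs per 10000 (x axis, linear, with its own scale in each panel) of each of the 10 genes in 12 cell states (y axis), with circles for replicate 1 and squares for replicate 2. Gdf3, Tdgf1, Lefty2, Nodal and Fgf4 stand far to the right in the shaded pluripotent-like state, and Spry4 and Dusp6 stand at the left there. Etv4 and Etv5 spread over the states. Etv4 is highest in cluster 10, and Etv5 is highest in the pluripotent-like state with cluster 10 next.

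**Figure D2:**
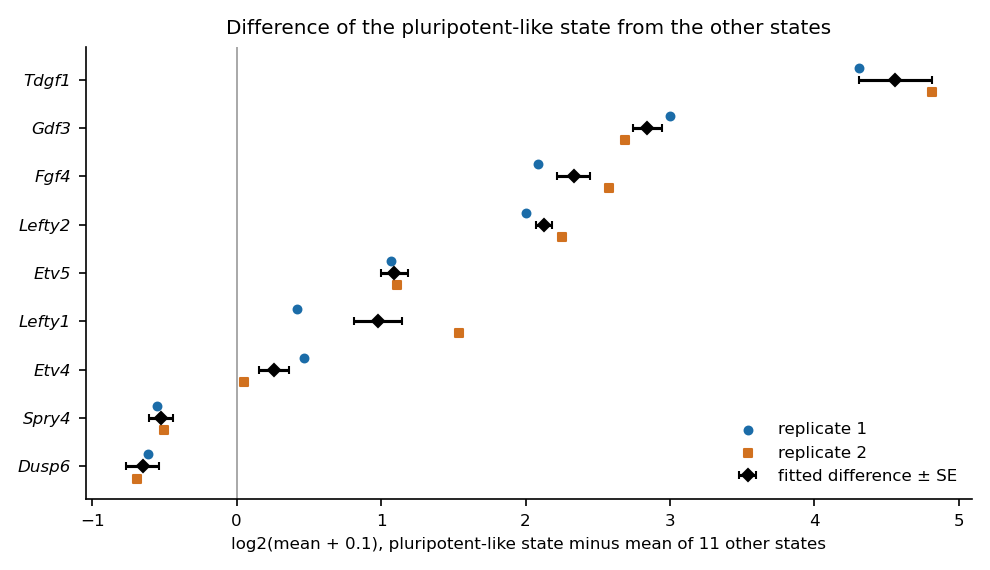
Difference in log2(mean + 0.1) between the pluripotent-like state and the mean of the other 11 states, with the fitted value and its SE (diamonds) and the difference within each library (circles and squares). The fitted values run from -0.65 for Dusp6 to 4.56 for Tdgf1, and the libraries lie farthest apart for Lefty1.

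Among the Nodal ligands, Gdf3 was higher in pluripotent-like cells than in any other state. GDF3 is a relative of Nodal that acts through the same co-receptor (Gdf3 lies at chr6:122605403-122610087, minus strand, GRCm38). Its level in the pluripotent-like state was 0.939 in replicate 1 and 0.728 in replicate 2, whereas the other states ran from 0.00653 to 0.0956 in replicate 1 and from 0.00478 to 0.0683 in replicate 2. The groups did not overlap, and the difference was 2.84 ± 0.10 (SE) on the log2 scale (adjusted p = 1.2e-16). Outside the pluripotent-like state the highest Gdf3 level was that of the mitotic-like cluster 10 in replicate 1 (0.0956) and of cluster 0 in replicate 2 (0.0683), and it was lowest in the myofibroblast-like cluster 11 (0.00653 and 0.00478).

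Nodal itself was sparse (chr10:61417972-61425338, plus strand). Pluripotent-like cells held 20 of its UMIs in replicate 1 and 42 in replicate 2, and all other cells together held 7 and 2. Per 10000 UMIs this was 33.7 times the level of the other cells in replicate 1 (exact 95% interval 13.7 to 94.4) and 110.1 times in replicate 2 (28.6 to 938.9), intervals that cover counting error only. No pluripotent-like cell had more than 2 Nodal UMIs. Nodal was at 0 in both libraries of the mitotic-like, fibroblast-like and myofibroblast-like states. In the fibroblast-like state a count of 0 allows up to 0.00801 and 0.0135 UMIs per 10000.

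Tdgf1 (chr9:110939603-110946158, minus strand) had the largest difference of the 9 members tested on the log2(mean + 0.1) scale. As a plain ratio of pooled UMIs per 10000, it was 17.0 and 49.2 times the other cells, below the 91.7 and 52.9 times of Lefty2. Pluripotent-like cells were at 4.05 in replicate 1 and 4.25 in replicate 2, and the other states lay between 0.0141 and 0.491 in the first library and between 0 and 0.167 in the second. The difference was 4.56 ± 0.25 (adjusted p = 4.1e-13), with no overlap. After each cell was thinned to 3000 UMIs, 61.0% (exact 95% interval 52.5 to 68.9) and 69.3% (64.5 to 73.8) of pluripotent-like cells still had a Tdgf1 UMI, against 0 of 249 and 1.21% of fibroblast-like cells (unthinned, 99.3% and 97.4% against 3.21% and 6.67%, at fibroblast-like medians of 13499 and 11463 UMIs). The 250 bases before the annotated start of Tdgf1 (chr9:110946159-110946408, GRCm38.p6, RefSeq, printed on the gene's strand) hold 3 ETS cores. This window is shown for comparison with those of Fgf4, Dusp6 and Etv5, with capitals at each GGAA or its reverse complement TTCC, the core that ETS factors such as ETV4 and ETV5 recognise:
Tdgf1: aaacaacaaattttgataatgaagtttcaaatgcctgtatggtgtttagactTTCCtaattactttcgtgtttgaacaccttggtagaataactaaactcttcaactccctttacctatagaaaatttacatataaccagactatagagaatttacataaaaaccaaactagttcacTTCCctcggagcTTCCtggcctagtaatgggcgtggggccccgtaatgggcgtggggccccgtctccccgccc

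Tdgf1 outside the pluripotent-like state sat in few cells. In replicate 1, 91 other cells had 3 or more Tdgf1 UMIs and held 88.2% of the Tdgf1 UMIs outside the state. In replicate 2, 38 such cells held 60.8%. They had a median of 1 of 11 pluripotency markers with a UMI, as did the cells without Tdgf1, against 9 of 11 in the pluripotent-like state. Of the 11 markers only Nanog was averaged singly. It was at 0.157 and 0.114 in the cells with 3 or more Tdgf1 UMIs, against 0.0141 and 0.0126 in other cells with no Tdgf1 UMI (1.10 and 1.14 in pluripotent-like cells). Pou5f1, which is not among the 11 and includes any transgene RNA, was at 0.180 and 0.513 against 0.0798 and 0.141. Epcam, an epithelial adhesion gene chosen after its values were seen, averaged 2.94 and 0.209 in the cells with 3 or more Tdgf1 UMIs. Other cells with no Tdgf1 UMI were at 0.126 and 0.0234. In replicate 1, 28 of the 91 cells belonged to the epithelial-like cluster 12 (described below), of which Epcam is a leading gene, and Epcam was not averaged without them. Of the whole list of 11 epithelial markers, the cells with 3 or more Tdgf1 UMIs had a median of 1 in replicate 1 and 0 in replicate 2. The cells with no Tdgf1 UMI had 0 in both. The median depths of the cells with 3 or more Tdgf1 UMIs, 20539 and 18667 UMIs, were above the 14882 and 13520 of the cells with none. The part that depth had in finding the cells with 3 or more was not tested. The pseudogene Tdgf1-ps1 is 98.8% identical to Tdgf1 over 512 bases, but the last 300 bases of Tdgf1 had no match in it.

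By state, cells with 3 or more Tdgf1 UMIs made up 97.3% and 91.6% of the pluripotent-like cells. They were 6.55% and 2.86% of cluster 0 and 6.43% and 4.24% of the mitotic-like cluster 10, and there were none among the 249 and 165 fibroblast-like or the 186 and 94 myofibroblast-like cells. An epithelial-like cluster 12 (9 of 11 markers; Gpx2, Ly6d, Epcam) lay outside the comparison because it had 67 cells in replicate 1 and 4 in replicate 2. Of these, 28 (41.8%) and 1 had 3 or more Tdgf1 UMIs, up to 39 in a cell. The 67 cells of replicate 1 held 383 of the 1163 Tdgf1 UMIs outside the pluripotent-like state there. The pooled ratio of Tdgf1 above and its share of UMIs below count them.

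**Figure D3:**
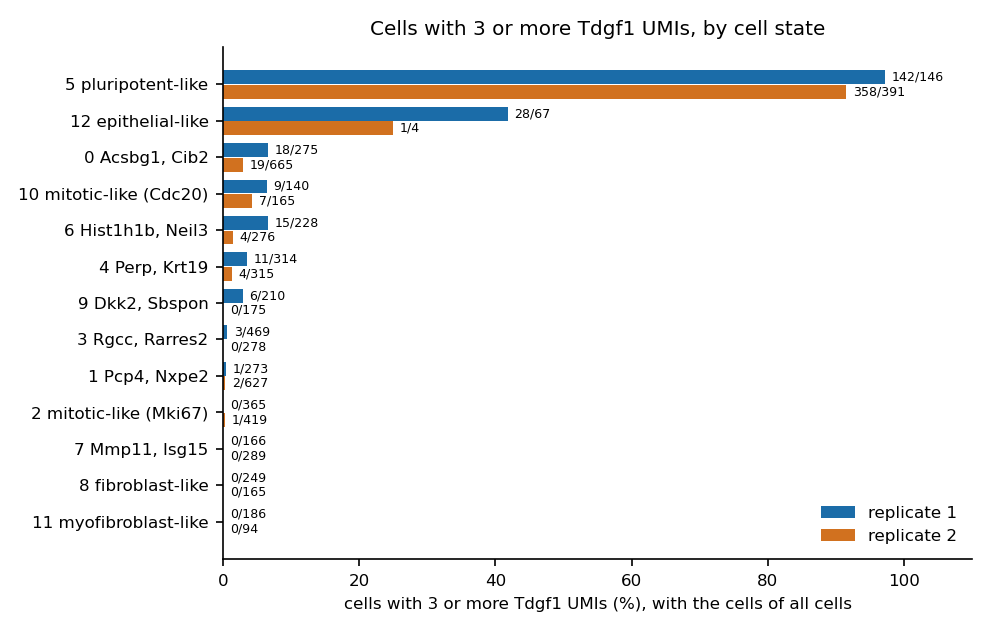
Share of cells with 3 or more Tdgf1 UMIs (bars from 0, %), by cell state and library, with the number of such cells over all cells of the state beside each bar. The pluripotent-like state reaches 97.3% and 91.6%, the epithelial-like cluster 12 reaches 41.8% in replicate 1, and the fibroblast-like and myofibroblast-like states have none.

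The inhibitors Lefty1 and Lefty2, which are neighbours on chromosome 1 (chr1:180935022-180938400 and chr1:180893108-180899103, both on the plus strand), differed in where they were found. Lefty2 was at 0.309 and 0.397 in the pluripotent-like state and at no more than 0.00552 and 0.0101 in any other state. The groups did not overlap (difference 2.13 ± 0.06, adjusted p = 1.2e-18). Lefty1 was at 0.176 in replicate 1 and 0.607 in replicate 2, and the other states ran from 0.0369 to 0.172 and from 0.0532 to 0.314. The difference for Lefty1 was 0.98 ± 0.17 (adjusted p = 2.2e-05).

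In replicate 2 a single pluripotent-like cell held 195 of the 600 Lefty1 UMIs of the state. That cell had a UMI of 3 of 11 pluripotency markers, against a median of 9 in the state. Without the cell of most Lefty1 UMIs in each library, an alternative chosen after seeing the data, the difference was 0.69 ± 0.15 (adjusted p = 0.00034). The cell left out in replicate 1 held 20 of the 82 Lefty1 UMIs of the state there. Without these cells the level of the state was 0.145 in replicate 1 and 0.432 in replicate 2. The highest other state was at 0.172 and 0.314, so in replicate 1 the state was then not above all others. Lefty1 was also present in fibroblast-like cells (0.138 and 0.214), and the level in cluster 7 (0.145 and 0.314) could not be told apart from that of pluripotent-like cells (difference 0.47 ± 0.23, adjusted p = 0.072, in a comparison that called 67.6% of genes). By the mean of both libraries Lefty1 was lowest in cluster 6 (0.0369 and 0.0565), where the levels overlapped with those of the mitotic-like cluster 10 (0.0748 and 0.0532). The transcripts of Lefty1 and Lefty2 are 91.2% identical over 1159 aligned bases, but the last 300 bases of Lefty1, near which these libraries are read, had no match in Lefty2. The end of Lefty2 was not aligned to Lefty1, and no reads were checked.

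Within the pluripotent-like state Lefty1 was detected more often in cells with Lefty2 than in cells without it. After thinning the cells with at least 15000 UMIs to that depth, Lefty1 was detected in 50.0% of the 38 cells with a Lefty2 UMI in replicate 1 (exact 95% interval 33.4 to 66.6) and in 6.93% of the 101 others (2.83 to 13.8). In replicate 2 it was detected in 41.0% of the 105 cells with Lefty2 (31.5 to 51.0) and in 9.54% of the 241 others (6.15 to 13.98). Across cells, Pearson's r of the log counts was 0.48 over 139 cells and 0.47 over 346 cells, as a description of cells that share a library. For the other 44 pairs of members r ran from -0.19 to 0.20 in the first library and from -0.15 to 0.16 in the second.

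**Figure D4:**
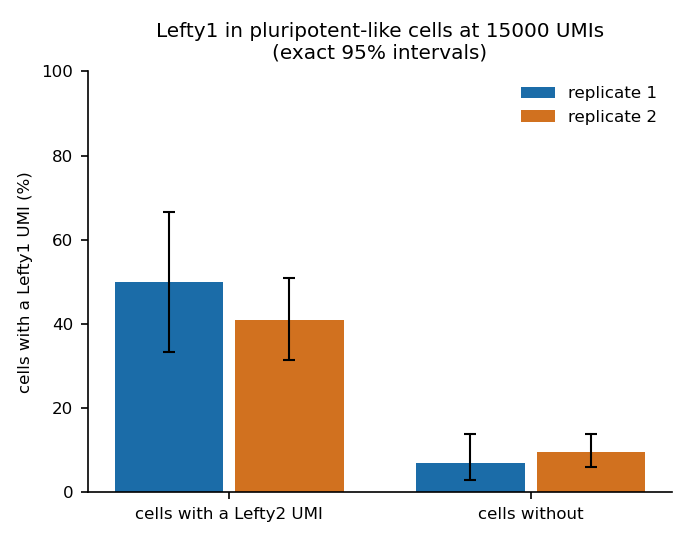
Share of pluripotent-like cells with a Lefty1 UMI (%, bars from 0), among cells with and without a Lefty2 UMI, at 15000 UMIs per cell, for each library, with exact 95% binomial intervals. The share is 50.0% and 41.0% in cells with Lefty2 and 6.93% and 9.54% in cells without.

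Fgf4, the FGF ligand, lies at chr7:144847367-144865243 (plus strand). It was at 0.596 in replicate 1 and 0.898 in replicate 2 in the pluripotent-like state, and between 0.00406 and 0.154 and between 0.00190 and 0.187 in the others. The groups did not overlap, and the difference was 2.33 ± 0.11 (adjusted p = 4.0e-14). After thinning to 3000 UMIs, 13.7% and 24.6% of pluripotent-like cells had a Fgf4 UMI, against 0 of 249 and 0 of 165 fibroblast-like cells (unthinned, 75.3% and 82.6% against 0.803% and 0.606%). The fibroblast-like state had the lowest Fgf4 level of all states, so this contrast is the widest one.

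Unlike Tdgf1, Fgf4 outside the pluripotent-like state was spread thinly, with at most 4 and 5 UMIs in any other cell. It was next highest in cluster 9 (0.154 and 0.187), where Tdgf1 was at 0.263 and 0.0224, and it was lowest in the fibroblast-like (0.00406 and 0.00190) and myofibroblast-like states (0.00913 and 0.0130). Cluster 9 was above cluster 3, the next in order, in both libraries. The annotated gene record of Fgf4 begins 14019 bases before the RefSeq start of the gene, and counts over that stretch could not be separated from those of the rest.

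The 250 bases before the RefSeq start of Fgf4 (chr7:144861136-144861385, GRCm38.p6, plus strand) hold no GGAA core, as do 6.55% of the 32851 promoter windows in the RefSeq table. The window is rich in G and C (71.2%).
Fgf4: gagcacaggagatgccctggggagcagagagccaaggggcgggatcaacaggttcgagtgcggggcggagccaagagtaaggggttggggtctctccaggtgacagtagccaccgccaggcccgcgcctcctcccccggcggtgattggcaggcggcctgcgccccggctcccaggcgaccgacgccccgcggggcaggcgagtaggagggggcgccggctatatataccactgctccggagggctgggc

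Etv5 (chr16:22381309-22439719, minus strand) and Etv4 (chr11:101769742-101785371, minus strand), the ETS factors induced by ERK, varied over all states rather than in the pluripotent-like state alone. Etv5 was at 0.904 and 0.931 in pluripotent-like cells and between 0.189 and 0.892 and between 0.180 and 0.750 elsewhere, with no overlap (difference 1.09 ± 0.09, adjusted p = 9.0e-10). Against the mitotic-like cluster 10 (0.892 and 0.750) the pluripotent-like state did not differ beyond the error (difference 0.15 ± 0.13, adjusted p = 0.36, in a comparison that called 51.4% of genes). Etv4 was at 0.197 and 0.118 in pluripotent-like cells and between 0.0134 and 0.379 and between 0.0131 and 0.304 elsewhere. The groups overlapped, and the difference of 0.26 ± 0.10 was called (adjusted p = 0.030) but lost its call under 7 alternatives (adjusted p up to 0.28). It was 0.46 in replicate 1 alone and 0.05 in replicate 2 alone.

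The highest state for Etv4 was cluster 10, in which 6 of 6 mitotic markers were at least 2-fold up, at 0.379 and 0.304, above the pluripotent-like state by 0.79 ± 0.14 (adjusted p = 6.1e-05). The mitotic-like cluster 2 was lower than cluster 10 for both factors. Etv4 was at 0.134 and 0.132 there (difference from cluster 10, -0.91 ± 0.14, adjusted p = 5.0e-05) and Etv5 at 0.417 and 0.472 (-0.76 ± 0.13, adjusted p = 0.00016). In that comparison 4 of the 9 members tested were called, namely Etv4, Etv5, Gdf3 and Tdgf1, all lower in cluster 2, against 23.0% of all genes. Both factors were low in clusters 3 and 9, with Etv4 at 0.0134 and 0.0131 and Etv5 at 0.226 and 0.180 in cluster 9. Over the 22 profiles of the other states Etv4 and Etv5 had a Pearson's r of 0.87, the highest of any pair of members, and the profiles share their libraries and states. The Etv5 promoter window (chr16:22439571-22439820, GRCm38.p6, minus strand) holds no GGAA core. The same table gives a second start further downstream, whose window (chr16:22438369-22438618) holds 4.
Etv5: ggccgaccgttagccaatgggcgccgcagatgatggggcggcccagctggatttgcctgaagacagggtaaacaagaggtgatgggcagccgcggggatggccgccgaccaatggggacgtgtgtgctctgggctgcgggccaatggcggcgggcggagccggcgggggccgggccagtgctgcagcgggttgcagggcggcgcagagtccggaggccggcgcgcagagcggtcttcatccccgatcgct

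The ERK antagonists went the other way, as the means of both were lowest in the pluripotent-like state. Dusp6 (chr10:99263231-99267489, plus strand) was at 0.0635 and 0.0435 there, against 0.0854 to 0.215 and 0.0759 to 0.177 in the other states. The groups did not overlap, and the difference was -0.65 ± 0.12 (adjusted p = 3.3e-05). Spry4, a feedback inhibitor of the RAS-ERK cascade, was at 0.0244 and 0.0253, against 0.0578 to 0.115 and 0.0304 to 0.103 (difference -0.53 ± 0.08, adjusted p = 8.0e-06). Against the myofibroblast-like cluster 11 alone (0.0578 and 0.0304) the Spry4 difference was not called (-0.20 ± 0.11, adjusted p = 0.12, in a comparison that called 70.5% of genes). These levels rest on 26 and 43 Dusp6 UMIs and 11 and 24 Spry4 UMIs in pluripotent-like cells.

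As pooled ratios of UMIs per 10000, pluripotent-like cells had 0.411 times the Dusp6 of the other cells in replicate 1 (exact 95% interval 0.267 to 0.608) and 0.316 times in replicate 2 (0.227 to 0.430). For Spry4 the ratios were 0.325 (0.161 to 0.587) and 0.306 (0.194 to 0.462). By the mean of both libraries Dusp6 was highest in clusters 0 (0.215 and 0.160) and 1 (0.189 and 0.177), where the levels overlapped with those of clusters 4, 6, 10 and 11. By the same mean Spry4 was highest in the fibroblast-like state (0.115 and 0.0973), which overlapped with clusters 6, 10 and 0. The 250 bases before the start of Dusp6 (chr10:99262981-99263230, GRCm38.p6, plus strand) hold 6 ETS cores, and 96.2% of promoter windows hold as many or fewer (median 3).
Dusp6: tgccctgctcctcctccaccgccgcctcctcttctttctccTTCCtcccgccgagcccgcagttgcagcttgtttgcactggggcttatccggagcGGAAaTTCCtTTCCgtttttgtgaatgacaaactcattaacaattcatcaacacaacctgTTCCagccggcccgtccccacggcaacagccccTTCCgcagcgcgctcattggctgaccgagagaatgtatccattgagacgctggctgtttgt

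A GGAA core, on either strand, stands in 93.4% of the promoter windows of this length. The longer ETS motif CCGGAA, which contains that core, stands in 12.03%, the octamer ATGCAAAT of POU factors in 1.60%, the FOXH1 motif TGTGGATT in 0.718% and the SMAD palindrome GTCTAGAC in 0.167%. None of these longer motifs was found, on either strand, in the windows of Fgf4, Tdgf1, Nodal, Dusp6 or Etv5, the 5 members with a window in the table.

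The share of a member's UMIs found in pluripotent-like cells can be set against the share of all UMIs that these cells held, 7.81% in replicate 1 and 16.0% in replicate 2. The order of the members differed between the libraries. Pluripotent-like cells held 88.6% and 91.0% of the Lefty2 UMIs, 74.1% and 95.5% of Nodal, 67.2% and 79.3% of Gdf3, 59.0% and 90.4% of Tdgf1 and 42.8% and 69.4% of Fgf4. They held 13.1% and 40.7% of Lefty1 and 15.4% and 29.2% of Etv5. For Etv4 the shares were 11.2% and 15.2%, and the share of all UMIs was within the exact 95% interval of the second. Dusp6 (3.37% and 5.69%) and Spry4 (2.68% and 5.52%) were under-represented in both libraries. The share was lower in replicate 1 for all 10 genes, and the pluripotent-like state was itself smaller there.

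**Figure D5:**
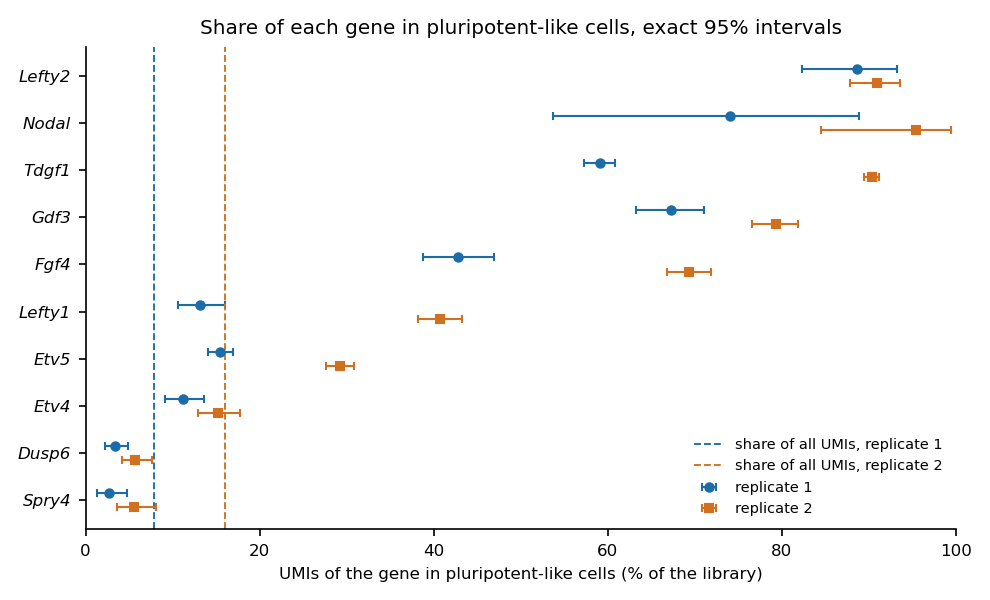
Percent of each gene's UMIs that lay in pluripotent-like cells (x axis), by library, with exact 95% binomial intervals; dashed lines give the share of all UMIs in those cells, 7.81% and 16.0%. Lefty2, Nodal, Tdgf1, Gdf3 and Fgf4 lie far to the right of the lines, and Dusp6 and Spry4 to the left of them.

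Most members also varied among the 11 states that were not pluripotent-like. By the F test over these states 8 of the 9 members tested were called, where 75.6% of all genes were, so the count is near the background. The exception was Lefty2 (adjusted p = 1.0), which was at or close to 0 in each of them. Etv4 and Etv5 had the largest F values of the 9 members. The spread between the highest and lowest of these states was 1.96 on the log2 scale for Etv4 and 1.67 for Etv5. For Tdgf1 the spread was 1.90, above that of Etv5, with a smaller F value. Without clusters 2, 6 and 10, the cycling states, an alternative chosen after seeing the data, the test again called 8 members. The Etv4 difference between the pluripotent-like state and the rest was then 0.45 ± 0.11 (adjusted p = 0.0014).

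The other genes of both pathways, from lists that hold the members too, were counted in the same comparison. Over all lists 77 genes were tested, of which 20 were higher in pluripotent-like cells (31.7% of all genes tested were), 38 lower (40.4% were) and 19 not called, with a median difference of -0.14 (all genes, -0.08). Without the members 13 of 68 were higher and 36 lower. Of the 4 Nodal and activin ligands tested, Gdf3 and Inhbb (0.52 ± 0.10, adjusted p = 6.8e-05) were higher, and Inhba (-1.19 ± 0.14, adjusted p = 9.9e-08) and Inha were lower. Among 7 receptors, co-receptors and SMADs tested, Tdgf1 and the type II receptor gene Acvr2b (0.342 and 0.361 against means of 0.0943 and 0.0964 over the other states, difference 1.23 ± 0.09) were higher, Smad4 (-0.70 ± 0.08) and Smad3 (-0.54 ± 0.11) were lower, and 3 were not called. Among 10 convertases, inhibitors and feedback genes of the pathway, 4 were higher, among them Smad7 (1.02 ± 0.11), an inhibitory SMAD, and 4 were lower, among them the convertase gene Furin (-1.46 ± 0.09).

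On the FGF side, the ligand genes split by state. Of 7 tested, Fgf4, Fgf17 (0.76 ± 0.06) and Fgf5 (0.24 ± 0.06) were higher in pluripotent-like cells, and Fgf7 (-1.03 ± 0.14), Fgf18 (-0.98 ± 0.13) and Fgf2 (-0.97 ± 0.12) were lower. Fgf5 and Fgf17 had 100 and 101 UMIs in all. Of 9 receptors and adaptors tested 2 were higher (Grb2 and Gab1) and 5 lower, with a median of -0.54. Fgfr1, the FGF receptor with the most UMIs, was at 0.291 and 0.245 against means of 1.33 and 1.17 over the other states (difference -1.86 ± 0.08, adjusted p = 2.7e-15). In the RAS-ERK cascade 4 of 13 were higher and 4 lower (31.7% and 40.4% of all genes were). Rps6ka1, a kinase gene downstream of ERK, had the largest difference there (0.533 and 0.583 against means of 0.0528 and 0.0675, 2.06 ± 0.12), followed by Map2k1 (1.00 ± 0.08), which encodes the ERK kinase MEK1.

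The feedback inhibitors of ERK were counted likewise. Of 14 tested 10 were lower (40.4% of all genes tested were), 3 were not called and 1 was higher (31.7% of all genes were), with a median of -0.40 (all genes, -0.08), and without Spry4 and Dusp6 8 of 12 were lower. Of these, Spred1 (-1.74 ± 0.08) and Nf1 (-0.97 ± 0.09) were the lowest. The single higher gene was Dusp9, an X-linked ERK phosphatase gene, at 0.326 and 0.730 against means of 0.0190 and 0.0183 over the other states (2.33 ± 0.13, adjusted p = 8.0e-13). Of 13 ERK-responsive transcription factors and targets 8 were lower, with Egr1 (-2.01 ± 0.10), Ccnd1 (-1.44 ± 0.13) and Phlda1 (-1.23 ± 0.15) the lowest, 3 were not called, and the 2 higher ones were Etv5 and Etv4, the latter with the limit given above.

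The pluripotent-like cells were split in 2 ways to ask whether the members varied within the state. Cells with a UMI of Dppa3, a gene of the naive state, at 3000 UMIs (25 and 71 cells) were set against cells without (121 and 320). By limma 1 gene (0.00801%) was called, which was Dppa3, the gene that defines the split, and 633 genes had an unadjusted p under 0.05. None of the 9 members tested was called, and Lefty1 and Spry4 had an unadjusted p under 0.05. Before thinning, 89 and 212 cells had a Dppa3 UMI, so many of them fell in the class without. Dppa3 averaged 0.624 and 0.458 in that class, against 2.49 and 2.22 in the class with it. The classes were thus mixed, and the lack of calls says little about the members. Lefty1 was at 0.1001 and 0.495 in cells with Dppa3 and at 0.192 and 0.632 in cells without (difference -0.42 ± 0.16, adjusted p = 0.85).

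Cells with 2 or more UMIs of the Y-linked genes Ddx3y, Eif2s3y, Kdm5d and Uty (39 and 117 cells) were set against cells with none (81 and 183), among those with at least 15000 UMIs. By limma no gene was called (0.0%), and 751 had an unadjusted p under 0.05. Without the trend of the variance the count was again 0. The Y-linked genes that define the split were thus not called either. Eif2s3y was at 0.667 and 0.800 in cells with Y-linked UMIs and at 0 in cells without (difference 3.055 ± 0.16, adjusted p = 0.17). The lack of calls therefore says little about the members. Dusp6 was at 0.0903 and 0.0577 in cells with Y-linked UMIs and at 0.0543 and 0.0188 in cells without (difference 0.36 ± 0.12, adjusted p = 0.76). Etv4 was at 0.295 and 0.158 against 0.164 and 0.103 (0.46 ± 0.16, adjusted p = 0.76). Dusp9 was at 0.302 and 0.417 against 0.370 and 0.904 (-0.59 ± 0.21, adjusted p = 0.76). In simulated data of this size 57% of genes changed 4-fold were found, and 48.5% for the Dppa3 split, so differences of 4-fold could also go unseen.

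Between the libraries, none of the 10 members was 2-fold or more apart over all cells on the log2(mean + 0.1) scale (0.152% of the genes tested were). Lefty1 was at 0.118 in replicate 1 and 0.210 in replicate 2, a difference of 0.51 on that scale. Lefty2 was at 0.0175 and 0.0445, which is over 2 times as plain means and a difference of 0.30 on that scale, and with 0.01 added in place of 0.1 the differences were 0.99 for Lefty2 and 0.79 for Lefty1. Within the pluripotent-like state Lefty1 was the only member past 2-fold on the log2(mean + 0.1) scale (difference 1.36; 0.152% of genes were), and next to it were Fgf4 (0.52) and Etv4 (-0.45). With 1 library a side this is a description.

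The genes with the most similar profiles over the 24 profiles of state and library were found by Pearson's r of the log2 values, as a description of profiles that share libraries and states. They were Alpl (0.98), Jarid2 (0.96) and Scn8a (0.95) for Tdgf1, Fam169a, Hsd17b14 and Ptpn6 (each 0.98) for Gdf3, AU018091, Fthl17f and Patl2 (each 1.00) for Lefty2, and Pycard, Apoa2 and Arhgap8 (each 0.92) for Fgf4. Profiles similar to Etv5 were those of Dtnb (0.91), Ilf2 (0.91) and Smagp (0.90), and to Etv4 those of Myl6b (0.89), Nsf (0.87) and Ccz1 (0.86). The r values were lower for Lefty1 (Nub1, 0.88; Atxn10, 0.85; Anxa11, 0.83), Spry4 (Cd109, 0.85; Mllt3, 0.85; Ly6e, 0.82) and Dusp6 (Mink1, 0.85; Mast4, 0.79; Mtss1l, 0.74).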

How the data were processed

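Single-cell 3′ RNA-seq (Chromium V2 chemistry) of 2 libraries of day 16 STEMCCA reprogramming was analysed. Per the study's methods the authors made the deposited values with Cell Ranger (version 2.1.1, mm10) and Seurat, filtered cells on detected genes (1508 to 5987 per cell in the table) and mitochondrial RNA (at most 8.99%), and did not state how doublets were treated. The deposited values are natural log values, ln(1 + UMIs of a gene per 10000 UMIs of its cell). Each cell summed to 10000 on the linear scale, and 100% of values were whole multiples of the cell's smallest value within 0.01, so UMIs were recovered. The suffix of a cell's barcode, which the labels give, showed its library, and 0 columns were left over. The authors' comparisons were not used.

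Cells of both libraries were clustered (scanpy 1.11.5; 2000 variable genes, 30 principal components, 15 neighbours, Leiden resolution 1, leidenalg 0.10.2) after leaving out 688 genes: the members, the pathway lists, Dppa3, the reprogramming factors and the X-linked and Y-linked genes. A cluster was named where at least 3 and 50% of a class's markers were 2-fold above the other cells and its leading genes did not favour another class. No doublet caller was run. Profiles were means per state and library, tested with limma 3.58.1 (R 4.3.3; trend, log2 of the mean + 0.1, terms for state and library, Benjamini-Hochberg over all genes, threshold 0.05) over genes with at least 100 UMIs. Libraries are the replicates, and p-values measure only the spread between these samples, across 12 states that share it. On simulated data with 200 of 12486 genes shifted 4-fold in the pluripotent-like state, 100% were recovered and 0.990% of calls were false. The other states had the same means in that simulation, unlike here, so its rates do not carry over to the calls reported. Other values used Python 3.11.15, scipy 1.17.1 and BLAST 2.17.0. Depth limits single cells: intervals and limits from 0 (3 counts) cover counting error only. Places are GRCm38, which mm10 denotes, from GENCODE, and promoters are RefSeq's for GRCm38.p6.

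The members and lists were chosen with earlier results of these data known. All members are named. Of each list, the genes named were taken from the 3 largest and the 3 smallest differences called, and Dppa3, Dusp9 and the Y-linked genes are named for the splits. Epcam is a marker named after its values were seen, and Nanog and Pou5f1 are named outside these rules. Alternatives were other pseudocounts, filters, cluster settings, profiles, leaving out the deepest 5% of cells, limma without trend or library term, centring, and leaving out a library.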

Additional observations from a re-analysis of the deposited data

Results flagged for a closer look

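The following values came from cells that the comparison of 12 states left out, the epithelial-like cluster 12 of replicate 1 (67 cells). They stood above the limit that a count of 0 allows. Among the alternatives, the one that took all other cells as 1 profile and the one that classed each cell by its own markers included these cells. Tdgf1 averaged 2.70 UMIs per 10000 there, between the 4.05 of pluripotent-like cells and the 0.0198 of fibroblast-like cells in the same library, and 34.3% of these cells kept a Tdgf1 UMI at 3000 UMIs. Lefty2 averaged 0.0472 there, against 0.309 in pluripotent-like cells and 0 in fibroblast-like cells, and 1 cell held 4 of its 6 Lefty2 UMIs. Without the cell of most UMIs of each gene the means were 2.39 for Tdgf1 and 0.0136 for Lefty2. The same cluster had no Nodal UMI in either library. Replicate 2 had 4 cells in it, so the values have no replicate.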

How the results depend on the processing

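For the pluripotent-like state against the others, the 9 members tested kept their direction under each alternative that tested them. With a mean of at least 0.1 required, Gdf3, Lefty2 and Spry4 were not tested and the other 6 were. Fgf4, Gdf3, Tdgf1, Lefty1, Lefty2, Etv5, Dusp6 and Spry4 also kept their call where tested, with a largest adjusted p of 0.0045, for Lefty1. Etv4 lost its call under 7 alternatives, with adjusted p from 0.069 (resolution 2) to 0.28 (all other cells as 1 profile). Without replicate 1 and without replicate 2 no test was possible, as 1 profile a state is left, and the differences ranged for Etv4 from 0.05 to 0.46, for Lefty1 from 0.42 to 1.54, for Fgf4 from 2.09 to 2.58, for Gdf3 from 2.69 to 2.999, for Tdgf1 from 4.31 to 4.81, for Lefty2 from 2.00 to 2.25, for Etv5 from 1.07 to 1.11, for Dusp6 from -0.69 to -0.61 and for Spry4 from -0.55 to -0.50. The genes called were 5762 when only genes with a mean of at least 0.1 were tested (7131 genes, hence fewer). Without the library term, which compares the states within each library (no replicate block), 8650 genes were called.

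In the Dppa3 split the genes called were 0 with a pseudocount of 0.01, with no filter, without the replicate block of the library term and without the trend, 10 with a mean of at least 0.1 and 4 with centring. In the Y-linked split they were 5 with a pseudocount of 1, 34 with a mean of at least 0.1, 182 with centring and 1 with at least 20000 UMIs. The cause was not tested. Leaving out a replicate turned the sign of Tdgf1, Lefty2, Dusp6 and Etv5 in the Dppa3 split and of Gdf3, Tdgf1, Lefty1 and Etv5 in the Y-linked split, none of them called. Nodal, Spry4 and Dusp6 in pluripotent-like cells rest on few UMIs, and both splits had 4 profiles.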
